A study of Mus musculus with 23 samples.

Results

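The comparison described here set the livers of untreated mice lacking Ctnnb1 in hepatocytes against those of untreated wild-type mice. All mice were males of the C3H strain, and 12 of the 23 arrays of the series entered the comparison, chosen by their labels: 7 from the knockout group (CTNNB1KO_H2O) and 5 from the wild-type group (WT_H2O). The other 11 arrays came from mice of both genotypes fed 0.05% phenobarbital, 7 knockout and 4 wild type, and served to estimate the spread and to test whether the genotype effect differed with the drug. In the knockout, Cre recombinase driven by the albumin promoter (Alb-Cre) removes the part of Ctnnb1 between loxP sites placed around exons 3 and 6. The deletion is thereby aimed at hepatocytes, and whether other liver cells, such as those of bile ducts, keep the gene was not measured here. Per the labels, the alleles had been backcrossed into C3H for 5 generations, and both groups were kept for 12 weeks on a diet free of phenobarbital, with water given as the vehicle at a dose of 0%. Age, littermate status and the Cre or loxP status of the wild-type mice were not given in the sources used here. The labels number the samples of a group without stating that each was a separate animal, so the p-values rest on the spread from sample to sample, which may be technical in part.

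Beta-catenin, the product of Ctnnb1, joins cadherins to the cytoskeleton at cell junctions and carries the canonical Wnt signal to TCF/LEF factors on DNA. In the liver lobule, endothelial cells of the central vein secrete Wnt ligands and R-spondin, and the hepatocytes nearest to that vein (perivenous) hold active beta-catenin and express genes for glutamine synthesis and drug metabolism. Hepatocytes near the portal vein (periportal) express genes for urea synthesis, gluconeogenesis and amino acid breakdown instead. Loss of beta-catenin from hepatocytes is known to abolish the perivenous programme.

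The promoters of 4 genes of that programme are shown because their transcripts were among those the comparison turned on: Cyp2e1 and Lect2, which had the largest falls in the perivenous lists, and Glul and Axin2, the usual markers of perivenous identity and of Wnt signalling. Each window runs 5′ to 3′ on the gene's strand, from 250 bases before to 50 bases after the RefSeq start (GRCm38.p6). Capitals mark the TCF/LEF core CTTTGA read on either strand, which appears as TCAAAG where it lies on the opposite strand, and the TATA box TATAAA.
Cyp2e1, chr7:140763569-140763868, plus strand: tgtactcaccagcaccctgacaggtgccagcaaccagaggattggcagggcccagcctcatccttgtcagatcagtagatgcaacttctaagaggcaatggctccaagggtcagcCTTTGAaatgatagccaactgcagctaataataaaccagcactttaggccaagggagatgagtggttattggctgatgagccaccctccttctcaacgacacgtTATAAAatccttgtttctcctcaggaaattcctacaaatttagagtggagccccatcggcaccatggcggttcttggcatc
Lect2, chr13:56548489-56548788, minus strand: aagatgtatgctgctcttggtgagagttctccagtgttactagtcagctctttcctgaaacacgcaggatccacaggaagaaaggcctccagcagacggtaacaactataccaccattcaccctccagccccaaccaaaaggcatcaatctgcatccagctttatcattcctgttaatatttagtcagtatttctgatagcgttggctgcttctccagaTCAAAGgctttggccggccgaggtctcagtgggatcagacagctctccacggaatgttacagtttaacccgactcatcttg
Glul, chr1:153899679-153899978, plus strand: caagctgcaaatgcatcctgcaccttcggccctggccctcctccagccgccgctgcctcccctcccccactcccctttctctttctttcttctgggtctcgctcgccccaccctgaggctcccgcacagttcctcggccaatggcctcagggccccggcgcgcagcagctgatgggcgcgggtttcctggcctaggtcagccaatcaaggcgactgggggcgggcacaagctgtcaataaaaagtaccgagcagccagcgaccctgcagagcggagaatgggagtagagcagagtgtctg
Axin2, chr11:108920099-108920398, plus strand: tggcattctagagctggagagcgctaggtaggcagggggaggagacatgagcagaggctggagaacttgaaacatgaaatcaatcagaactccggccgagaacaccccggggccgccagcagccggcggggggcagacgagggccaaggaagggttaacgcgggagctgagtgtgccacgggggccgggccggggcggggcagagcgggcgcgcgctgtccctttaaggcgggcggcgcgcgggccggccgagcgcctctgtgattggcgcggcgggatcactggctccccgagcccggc
Cyp2e1 held the core on its own strand at bases -135 to -130 and a TATA box at -31 to -26, counted from the start. Lect2 held the core on the opposite strand at -31 to -26, and the windows of Glul and Axin2 held neither motif. Among all 32851 RefSeq promoter windows of this length, 16.0% contained the core on 1 of the strands, against 12.6% of the 14164 windows of genes tested here. Windows of genes that fell at least 2-fold contained it in 25 of 122 (20.5%), and those of genes that rose at least 2-fold in 14.2%. For the genes that fell in the perivenous and Wnt lists below, the share was 11 of 42 windows (26.2%). The TATA box was present in 13.6% of all windows, 8.26% of those of genes tested and 21.4% of those of the perivenous and Wnt genes that fell. The HNF4A motif CAAAGTC was present in 4.44% of all windows and 11.9% of the latter. These are counts of letters, and a match is not a binding site.

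The tissue matched its label. Albumin read 14.72 to 14.74 on the log2 scale in wild type and 14.76 to 14.81 in knockout, and the hepatocyte factor Hnf4a did not pass the test (log2 change -0.07, adjusted p = 0.415). Ctnnb1 itself read 12.18 to 12.23 in wild type and 12.11 to 12.42 in knockout, and none of its 3 tested probe sets was called (log2 change 0.05, SE 0.0542, adjusted p = 0.538). Where these probes lie relative to the deleted exons is not given in the sources used here, so the level of Ctnnb1 checks nothing about the deletion. The knockout arrays were not alike. Compared with the wild-type mean, knockout arrays 3, 4 and 5 had 210 to 219 genes at least 2-fold away, array 1 had 593, and arrays 2, 6 and 7 had 987 to 1401, while the wild-type arrays had 7 to 34. The labels and files do not tell why, and RNA integrity values were not used here. Counts below are therefore also given for knockout arrays 3, 4 and 5 alone against the 5 wild-type arrays. This choice was made after the data were seen. The phenobarbital arrays stayed in that fit, which shares 1 estimate of the spread per gene over all groups. A gene that missed the threshold there was thus not judged on the spread of the compared arrays alone. Log2 changes for those arrays are given for some genes only, and others moved too, as Alas1 (1.13 to 0.0578) and Lcn2 (3.32 to -0.71).

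Across the liver transcriptome, the threshold for a call was an adjusted p of 0.05 (limma, Benjamini-Hochberg). Of 13826 genes tested, 3453 (25.0%) were called, 2052 higher in knockout (14.8%) and 1401 lower (10.1%). The median log2 change of all genes tested was -0.00473 (-0.034 after quantile normalization), against which the medians of gene lists below can be read. Changes of at least 2-fold were found in 431 genes that rose and 107 that fell. In 1470 genes (10.6%) the arrays of the groups did not overlap, 965 higher (6.98%) and 505 lower (3.65%). With knockout arrays 3, 4 and 5 alone, 1073 genes were called (7.76%), 686 higher (4.96%) and 387 lower (2.8%). Without arrays 2, 6 and 7 there were 1535 calls (11.1%), of which 978 were higher (7.07%) and 557 lower (4.03%), and a fit of only the 12 compared arrays gave 1271 higher (9.19%) and 807 lower (5.84%). Of the 3453 genes, 926 were called in the same direction with arrays 3, 4 and 5 alone, and 3452 kept their sign. Of the genes changed at least 2-fold, 76 of 107 that fell were still called, against 150 of 431 that rose. Of the calls, 59.4% were higher, and quantile normalization of the arrays brought that share to 50.2%.

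**Figure D1:**
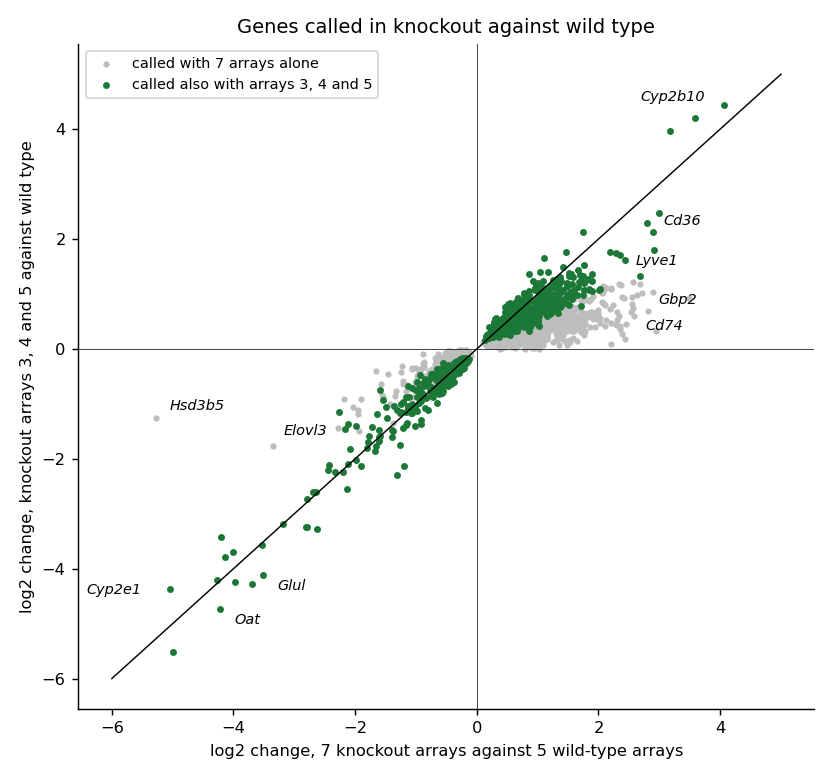
Log2 change of every called gene with all 7 knockout arrays (horizontal) against knockout arrays 3, 4 and 5 alone (vertical), both against the same 5 wild-type arrays, so that the axes share samples. Green points are the 926 genes called in both; 76 of the 107 falls of at least 2-fold were called in both, against 150 of the 431 rises.

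Part of the direct feedback targets of the Wnt signal fell in the knockout. In the list of 23 Wnt feedback and core target genes, 19 were tested, 7 fell and none rose, with a median log2 change of -0.0425. Tbx3, a T-box repressor and Wnt target, read 7.61, 7.88, 7.65, 7.30 and 6.95 in the 5 wild-type arrays. In the 7 knockout arrays it lay between 2.98 and 3.40 with a median of 3.14. No knockout array reached the level that an array's probe sets had to exceed to pass the filter (4.56 on average), so the drop is best read against that level, where the log2 change was -2.93, a lower limit to its size. The fitted change was -4.27 (SE 0.131, adjusted p = 9.22e-16), and -1.72 for the mean of its probe sets.

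Receptors and inhibitors of the pathway moved with Tbx3. Lgr5, the R-spondin receptor, read 6.97, 6.86, 6.4, 6.30 and 6.03 in wild type and 4.21 to 4.60 (median 4.44) in knockout, and the groups did not overlap. It fell by 2.12 (SE 0.129, adjusted p = 1.34e-10), or by 1.11 for the mean of its probe sets. Only 1 of 7 knockout arrays was above the filter level, so the size of this fall is uncertain. Rnf43 and Znrf3, ubiquitin ligases that remove Frizzled receptors, fell by 1.61 (SE 0.106) and 0.64 (SE 0.0966). Notum, a secreted lipase that inactivates Wnt ligands, fell by 1.47 (SE 0.123). Axin2, a scaffold of the complex that degrades beta-catenin, is the usual reporter of the pathway. Its wild-type values were 6.36, 6.56, 6.5, 6.62 and 6.61, and its knockout values ran from 5.42 to 5.97 with a median of 5.79. The difference was only 0.79 (SE 0.106, adjusted p = 1.99e-05), without overlap, and 0.38 for the mean of its probe sets. Tnfrsf19, a receptor of the tumour necrosis factor family, fell by 1.61 (SE 0.154), or by at least 0.73 against the filter level, under which all knockout arrays lay, and by 0.75 for the mean of its probe sets. The Wnt targets best known from dividing cells did not pass the test: Myc had a log2 change of 0.38 (adjusted p = 0.316) and Ccnd1 of 0.67 (adjusted p = 0.429). For arrays 3, 4 and 5 alone the change of Ccnd1 was -0.77 (adjusted p = 0.416). With arrays 3, 4 and 5 alone, the same 7 genes were called lower and Lgr4, another R-spondin receptor, higher (log2 change 0.32).

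Genes for the capture of ammonia as glutamine fell together. In this list of 8 genes, 6 fell and none rose, with a median of -1.91, and the count was 6 with arrays 3, 4 and 5 alone. Glul encodes glutamine synthetase, which is confined to the hepatocytes around the central vein. It read 12.27, 12.36, 12.13, 12.48 and 12.36 in wild type and 8.07 to 9.87 (median 8.84) in knockout. The change was -3.51 (SE 0.27, adjusted p = 6.5e-09), 11.4-fold. Oat, ornithine aminotransferase, which feeds glutamate to that reaction, read 11.83, 12.12, 12.60, 12.69 and 11.75 in wild type and 7.35 to 8.64 (median 8.12) in knockout, a change of -4.22 (SE 0.213, adjusted p = 3.5e-12). For both genes the highest knockout array was more than 2 log2 units below the lowest wild-type array. Slc1a2, a glutamate importer, fell by 2.45 (SE 0.182, or 1.56 for the mean of its probe sets), and Rhbg, an ammonium transporter, by 1.37 (SE 0.126). Lhpp, a phosphatase that acts on phosphohistidine and phospholysine, fell by 2.65 (SE 0.133).

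Within the knockout the residual levels of these genes were not uniform. Glul was 8.21, 8.32 and 8.07 in arrays 3, 4 and 5 and 8.84, 9.06, 9.30 and 9.87 in arrays 1, 2, 6 and 7, and Oat showed the same division, with 7.52, 7.35 and 7.5 against 8.64, 8.47, 8.12 and 8.29. The differences from wild type were thus larger, not smaller, with arrays 3, 4 and 5 alone, at -4.12 for Glul and -4.74 for Oat.

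**Figure D2:**
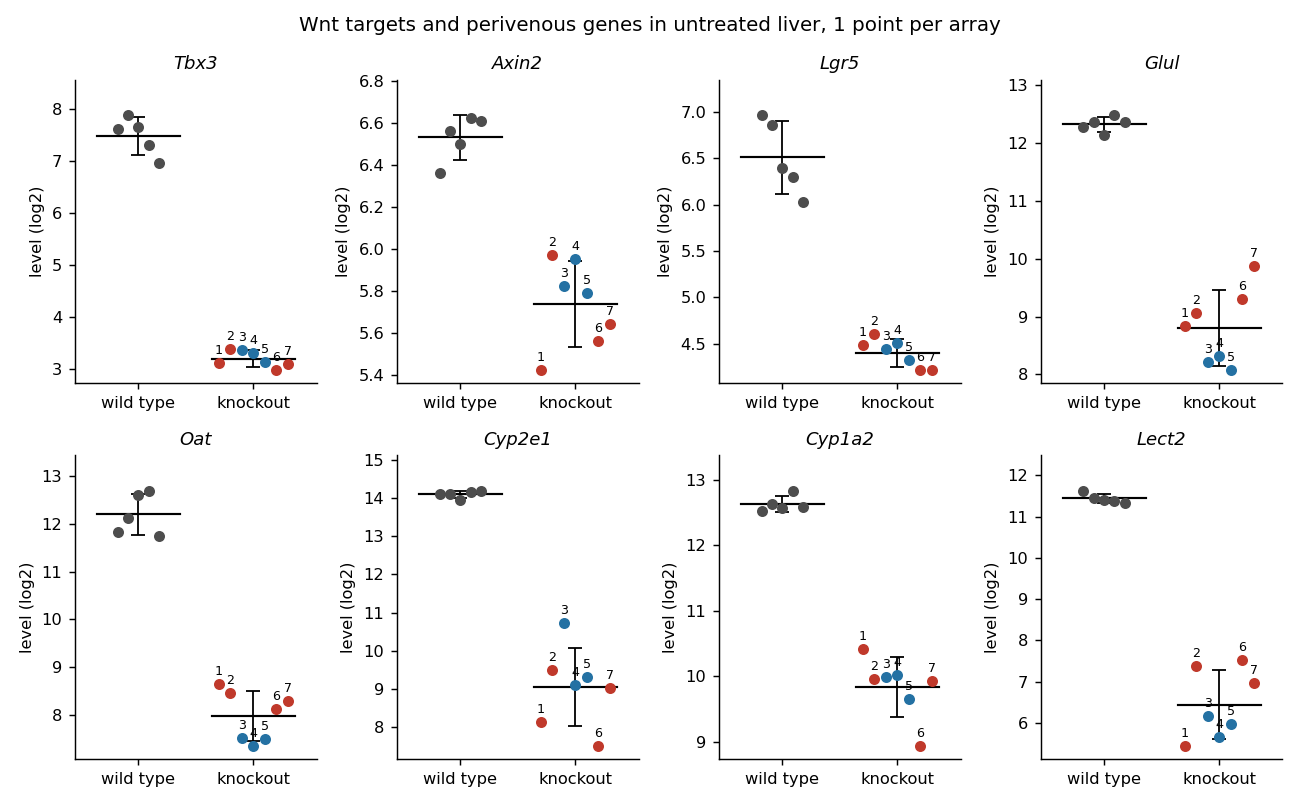
Log2 level of 8 perivenous genes or Wnt targets in each array, wild type in grey and knockout labelled by array number, with arrays 1, 2, 6 and 7 in red and 3, 4 and 5 in blue; lines are means and bars SDs. The groups do not overlap in any of the 8 genes, from the change of -0.79 in Axin2 to that of -5.05 in Cyp2e1.

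The cytochromes P450 that perivenous hepatocytes use to oxidise drugs and sterols were lower. Of 17 tested members, 13 fell and none rose, with a median of -1.22. Cyp2e1, which oxidises ethanol and acetaminophen, read 14.11, 14.11, 13.94, 14.16 and 14.17 in wild type, near the top of the scale (the highest value in the table was 14.92). In knockout it ran from 7.51 to 10.74 with a median of 9.11. The change was -5.05 (SE 0.357, adjusted p = 1.55e-09), 33.0-fold. Cyp1a2, which metabolises caffeine and arylamines, read 12.52, 12.63, 12.57, 12.83 and 12.58 in wild type and 8.93 to 10.41 (median 9.95) in knockout, and changed by -2.79 (SE 0.178, adjusted p = 2.66e-10). Cyp2c37 fell by 4.0 (SE 0.345) and Cyp27a1, a sterol hydroxylase of mitochondria, by 1.36 (SE 0.179, or 0.80 for the mean of its probe sets).

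Some P450s varied widely among the knockout arrays. Cyp2c50 fell by 2.27 with all arrays and by 1.14 with arrays 3, 4 and 5 alone. Its knockout values were 11.28, 11.90 and 12.10 in those arrays, 11.64 in array 1, and 9.06, 8.26 and 10.15 in arrays 2, 6 and 7, below a wild-type range of 12.72 to 13.11. Cyp2c29 did not pass the test (log2 change -1.06, adjusted p = 0.0846): arrays 1, 3, 4 and 5 read 13.40 to 13.70, within the wild-type range of 13.37 to 13.70, and arrays 2, 6 and 7 read 11.30, 10.05 and 11.75. Cyp3a11, a major P450 of mouse liver, lay between 14.14 and 14.33 in all 12 arrays (log2 change -0.02, adjusted p = 0.74). The count of 13 falls became 8 with arrays 3, 4 and 5 alone.

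Among 31 further perivenous genes tested, 20 fell and none rose, with a median of -1.02, and 19 were called with arrays 3, 4 and 5 alone. Lect2, a secreted chemotactic protein, read 11.63, 11.46, 11.41, 11.38 and 11.34 in wild type and 5.44 to 7.52 (median 6.17) in knockout, a change of -5.0 (SE 0.378, adjusted p = 4.93e-09). Avpr1a, the vasopressin receptor, changed by -4.14 (SE 0.161), and Rgn, a calcium-binding lactonase, by -4.21 (SE 0.45). Rgn is needed for vitamin C synthesis, and so is Gulo, the last enzyme of that route, which fell by 3.97 (SE 0.193). Its wild-type values were 11.28, 11.33, 11.24, 11.29 and 11.07, and the knockout values lay between 6.72 and 7.83 with a median of 7.33, far from overlap. Slc13a3, a sodium-coupled carrier of dicarboxylates, fell by 3.70 (SE 0.261, or 1.43 for the mean of its probe sets). Aldh3a2, which oxidises fatty aldehydes, fell by 2.80 (SE 0.262).

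Large falls outside the zonation lists included Tenm3, a teneurin of the cell surface. Tenm3 read 7.49 to 7.55 in wild type and 3.67 to 4.17 in knockout, below the filter level in every knockout array, a drop of at least 2.98 against that level (adjusted p = 2.53e-15). Nxpe2 was below the filter level in every knockout array too, at 3.14 to 3.38 against 5.86 to 6.89 in wild type, a log2 change of -1.88 or more in size against that level (adjusted p = 1.28e-12). The mean of the probe sets of Nxpe2 fell by 1.69.

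Regulators of drug metabolism fell less. Nr1i3, the constitutive androstane receptor (CAR), read 8.70, 8.56, 8.87, 8.84 and 8.65 in wild type and 6.09 to 8.19 (median 7.41) in knockout. The change was -1.54 (SE 0.259, adjusted p = 0.000242), and -0.93 with arrays 3, 4 and 5 alone. Ahr, the dioxin receptor that drives Cyp1a2, fell by 0.73 (SE 0.133), or by 0.44 for the mean of its probe sets, and its groups overlapped. Nr1i2, the pregnane X receptor, did not pass the test (log2 change -0.24, adjusted p = 0.152). In the list of 34 hepatocyte transcription factors and nuclear receptors, 5 rose and 8 fell (median -0.0812). Of all genes, 14.8% were called higher and 10.1% lower. Onecut2 fell by 0.93 (SE 0.12) and Esr1, the oestrogen receptor, rose by 0.82 (SE 0.131), both without overlap and both also called with arrays 3, 4 and 5 alone. The mean of the probe sets of Esr1 rose by 0.49. Of the factors, 2 rose and 3 fell with those arrays.

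CAR's classical target went the opposite way from the receptor. Cyp2b10 read 6.22, 5.42, 5.22, 5.90 and 5.66 in wild type and 7.76 to 10.62 (median 10.20) in knockout, without phenobarbital. It rose by 4.06 (SE 0.323, adjusted p = 1.14e-08), 16.7-fold, and all 3 of its tested probe sets were called higher. Cyp2b9, a P450 of female mouse liver, lay between 3.73 and 4.31 in wild type, below the filter level in all 5 arrays, and between 6.01 and 9.21 in knockout. Against the filter level its rise was at least 3.04 (adjusted p = 0.000111 for the fitted change). Both genes were as high in arrays 3, 4 and 5 as in the others: Cyp2b10 rose by 4.44 and Cyp2b9 by 4.21 there. Of 14 tested genes of the CAR list, 5 rose and 1 fell (median 0.197), and 6 rose and 2 fell with arrays 3, 4 and 5 alone. Gadd45b, a stress-induced CAR target, rose by 0.96 (SE 0.21, or 0.60 for the mean of its probe sets). The gene that fell was Meg3, a long noncoding RNA of the imprinted Dlk1-Dio3 region, by 1.61 (SE 0.109), with Rian, its neighbour, down by 2.08 (SE 0.177). The means over their probe sets fell by 0.79 and 0.85.

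Periportal genes did not mirror the perivenous loss in size. Of 36 tested, 9 rose, 2 fell and 25 were not called, with a median of 0.141, although 30 of 36 had a positive log2 change. The shares of all genes called were 14.8% higher and 10.1% lower. Hsd17b13, a lipid droplet protein, read 8.21, 9.21, 9.19, 9.37 and 9.39 in wild type and 9.99 to 10.29 (median 10.07) in knockout, a rise of 1.03 (SE 0.141, adjusted p = 2.64e-05), or 0.61 for the mean of its probe sets. Aldh1b1, a mitochondrial aldehyde dehydrogenase, rose by 1.19 (SE 0.181), and Cyp2f2, the periportal P450, by 0.27 (SE 0.0589), from a level already at 13.21 to 13.56. Ctsc, a lysosomal protease, rose by 1.38 (adjusted p = 0.00123). For arrays 3, 4 and 5 alone its change was 0.72 and its adjusted p 0.104, the highest over the settings, which began at 0.000417. Igfbp2 fell by 1.94 (adjusted p = 0.00221), with a range of adjusted p from 0.00104 to 0.0533 and the same array choice at its upper end. With those arrays, 8 periportal genes rose and none fell, while 14 rose when knockout array 7 alone was left out.

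Most enzymes of the urea cycle did not pass the test. Cps1, its first enzyme, lay between 13.69 and 13.93 in all arrays (log2 change 0.01, adjusted p = 0.873), and Arg1 between 13.30 and 13.67 (log2 change 0.09, adjusted p = 0.395). Asl, argininosuccinate lyase, rose by 0.36 (adjusted p = 0.043), with an adjusted p of 0.0664 for arrays 3, 4 and 5 alone. Ass1 varied from 6.51 to 8.76 within wild type alone and had a log2 change of 0.56 (adjusted p = 0.186). Of 41 genes for the urea cycle and amino acid breakdown, 4 rose and 7 fell, near the 25.0% of all genes called, with a median of -0.0315. With arrays 3, 4 and 5 alone 4 rose and 3 fell, where 7.76% of all genes were called. Csad, which makes the taurine precursor hypotaurine, fell by 2.16 (SE 0.336, adjusted p = 0.000103), although its groups overlapped. Prodh, proline dehydrogenase, fell by 1.32 (SE 0.216, adjusted p = 0.000173), from 10.02 to 10.36 in wild type to 7.90 to 9.60. Pck1, the gatekeeper of gluconeogenesis, did not pass the test (log2 change -0.29, adjusted p = 0.234).

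Bile acid genes shifted downwards in part. Of 33 tested, 11 fell and 1 rose, with a median of -0.259, and 7 fell and 1 rose with arrays 3, 4 and 5 alone. Among all genes, 10.1% were called lower, and 2.8% with those arrays. Slco1b2, which imports bile acids and drugs from blood, read 12.94 to 13.10 in wild type and 10.30 to 11.69 (median 11.37) in knockout, a drop of 1.73 (SE 0.184, adjusted p = 9.98e-07). Cyp7b1, of the alternative synthesis route, fell by 1.35 (adjusted p = 0.00409), but by 0.85 with arrays 3, 4 and 5 alone, where the adjusted p was the highest of its range of 0.00145 to 0.181. Cyp7a1, the rate-limiting enzyme of bile acid synthesis, fell by 0.96 (SE 0.328, adjusted p = 0.0372) with overlapping groups. That call ended when knockout array 6 or 7 or wild-type array 2 or 3 was left out, with adjusted p from 0.0783 to 0.129, and the range over all settings was 0.0169 to 0.273. Cyp8b1, which sets the ratio of cholic to muricholic acid, did not pass the test (log2 change -0.42, adjusted p = 0.32). Cholesterol synthesis had 1 gene higher and 1 lower of 23 (median -0.107), and neither was called with arrays 3, 4 and 5 alone.

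Genes of fat handling moved in both directions. Cd36, which takes up long-chain fatty acids, read 6.68, 6.37, 6.26, 7.48 and 5.79 in wild type and 8.17 to 10.53 (median 9.42) in knockout. It rose by 2.89 (SE 0.34, adjusted p = 3.81e-06), 7.41-fold, and by 2.12 with arrays 3, 4 and 5 alone. Of the 31 lipogenesis and lipid droplet genes tested, 6 rose and 5 fell (median 0.0344), and with those arrays 2 rose and none fell. Fasn, fatty acid synthase, did not pass the test (log2 change 0.14, adjusted p = 0.669). Fabp4, a fatty acid carrier of adipocytes, macrophages and capillaries, rose by 1.67 (SE 0.262), or 0.88 for the mean of its probe sets. The adipocyte hormone Adipoq, named after its values were seen, was below the filter level in all wild-type arrays (3.11 to 3.36) and was above it at 4.85, 7.17 and 5.81 in knockout arrays 1, 4 and 7. Fabp4 was highest in the same arrays, at 8.99, 9.91 and 9.39, and read 7.95 and 7.73 in knockout arrays 3 and 5, where Adipoq was below the filter level, against 6.91 to 7.21 in wild type. Cd36 was highest in knockout arrays 2 and 6, at 10.45 and 10.53, where Adipoq read 3.12 and 3.02 and Fabp4 8.44 and 8.93. Cd36 read 9.42, 8.95 and 9.54 in arrays 1, 4 and 7, and 8.79 and 8.17 in arrays 3 and 5. The part of adipocyte RNA in the rises of Fabp4 and Cd36 was not tested.

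Of 31 genes for fatty acid oxidation and ketone synthesis, 9 fell and none rose (median -0.187), but with arrays 3, 4 and 5 alone 2 fell and 1 rose (median 0.0586). Pdk4, a kinase that blocks pyruvate use in fasting, fell by 1.66 (SE 0.243, adjusted p = 5.79e-05), and Acaa1a, a peroxisomal thiolase, by 0.77 (SE 0.0646, adjusted p = 2.84e-08). Both were called with arrays 3, 4 and 5 alone. Acaa1a lies within 10 Mb of Ctnnb1. Cpt1a, which admits fatty acids to mitochondria, had a log2 change of -0.11 (adjusted p = 0.564). Respiratory chain subunits fell in 7 of 44 (median -0.084), beside 10.1% of all genes called lower. None of them was called lower with arrays 3, 4 and 5 alone, where 1 rose. In the sugar list 5 of 37 rose and 6 fell (median 0.0224), near the 25.0% of all genes called. The hexokinases Hk1 and Hk2, forms of cells other than hepatocytes, rose by 1.0 and 1.30. None of the 37 was called with arrays 3, 4 and 5 alone. There Hk1 changed by 0.43 (adjusted p = 0.0688, range 0.000156 to 0.0688) and Hk2 by 0.52 (adjusted p = 0.222, range 0.00284 to 0.222), and the mean of the probe sets of Hk1 rose by 0.51 with all arrays.

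Heme and conjugation genes showed a like mixture. In the list for heme synthesis and electron supply to P450, 6 of 18 fell and 3 rose (median -0.112), and 3 fell and none rose with arrays 3, 4 and 5 alone. Blvrb, biliverdin reductase B, fell by 1.14 (SE 0.148, adjusted p = 1.44e-05) without overlap. Alas1, the first enzyme of the route, ranged from 7.10 to 10.96 within wild type and did not pass the test (log2 change 1.13, adjusted p = 0.147). Of 19 glutathione S-transferases, 4 fell and none rose (median -0.159), Gstm6 most, by 1.40 (SE 0.174, adjusted p = 7.36e-06), and 6 fell with arrays 3, 4 and 5 alone. Among 25 UGT and SULT conjugation enzymes, 9 fell and 2 rose (median -0.201), against 3 and 1 with those arrays. Nat8, an acetyltransferase of cysteine conjugates, fell by 1.98 (SE 0.256), and Ugt2b1 by 1.13 (SE 0.211), or by 0.68 with arrays 3, 4 and 5 alone. In the list of carboxylesterases, aldehyde dehydrogenases and related enzymes, 8 of 38 fell and 4 rose (median -0.157), with 7 and 3 for arrays 3, 4 and 5 alone. Adh4 fell by 0.94 (SE 0.116) and Aox1 by 0.88 (SE 0.128).

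Genes of the growth hormone axis and male-biased genes, kept as 1 list, split the knockout arrays more than most lists. Of 24 tested members of both kinds, 10 fell and none rose, with a median of -0.335. With arrays 3, 4 and 5 alone 2 fell, the complement gene C6 and Stat5a. Hsd3b5, a steroid dehydrogenase of male mouse liver, read 12.41, 12.66, 12.61, 12.33 and 12.79 in wild type. In knockout it read 11.57, 11.75 and 10.62 in arrays 3, 4 and 5 and 4.68, 4.58, 3.74 and 4.05 in arrays 1, 2, 6 and 7. All 7 knockout values were below the wild-type range, and the log2 change of -5.28 had an SE of 1.48 (adjusted p = 0.0134). With arrays 3, 4 and 5 alone it was -1.25 (adjusted p = 0.643), the highest of a range from 0.0044 to 0.643. Elovl3, a fatty acid elongase with male bias, showed 11.68, 11.70 and 9.75 in arrays 3, 4 and 5 and 7.99 to 8.52 in the others, a change of -3.35 (adjusted p = 0.00217) that became -1.76 (adjusted p = 0.183, range 0.000596 to 0.183). The macrophage list described below stood 1.79 to 2.61 above the wild-type mean in arrays 1, 2, 6 and 7 and 0.32 to 0.44 above it in arrays 3, 4 and 5, and its part in these falls was not tested. Slco1a1, an organic anion carrier, was below wild type in all 7 arrays as well but did not pass the test (log2 change -2.91, adjusted p = 0.0613). Igf1, the main growth hormone target in liver, had a log2 change of 0.06 (adjusted p = 0.618). In the list of female-biased genes 5 of 18 rose and 2 fell (median 0.332), against 6 and 2 with arrays 3, 4 and 5 alone. Besides Cyp2b9 this included Rtn4, up by 1.07 (SE 0.159), or 0.57 for the mean of its probe sets.

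Most markers of hepatic stellate cells and of extracellular matrix rose. Of 43 tested, 32 rose and none fell, with a median of 1.09. All knockout arrays were above all wild-type arrays in 26, beside 6.98% of all genes. In whole liver, more cells of a type and more RNA per cell cannot be told apart, here and for every cell type below. Pdgfrb, a receptor of stellate cells and pericytes, read 6.66, 6.47, 6.80, 6.25 and 6.37 in wild type and 7.65 to 9.53 (median 7.97) in knockout. It rose by 1.82 (SE 0.265, adjusted p = 5.32e-05), or 1.12 for the mean of its probe sets. Lrat, the enzyme that stores vitamin A in quiescent stellate cells, rose by 1.25 (SE 0.127), and Reln, a secreted protein of the same cells, by 1.09 (SE 0.142). Lrat lay at 6.92 to 7.34 in wild type and 8.10 to 8.75 in knockout, with arrays 3, 4 and 5 at 8.23, 8.28 and 8.36, inside the range of the other knockout arrays. These 3 genes were named after their values were seen. The groups overlapped for Des, a preset stellate marker, at 5.91 to 6.34 in wild type and 6.06 to 6.43 in knockout.

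The stellate rise was present in every knockout array, whereas collagen of scar tissue differed more between arrays. The mean of the list, relative to the wild-type mean, ran from 0.61 to 1.79 in the knockout arrays. With arrays 3, 4 and 5 alone 22 of 43 rose, with a median of 0.781. Postn, a matrix protein of activated fibroblasts, read 6.09, 5.92, 6.5, 6.24 and 6.36 in wild type and 7.90 to 9.59 (median 8.26) in knockout, up by 2.29 (SE 0.269, adjusted p = 3.79e-06) and by 1.74 with arrays 3, 4 and 5. Col3a1 rose by 2.12 (adjusted p = 0.005), and by 1.10 with arrays 3, 4 and 5 alone, where its adjusted p was the highest of its range of 0.00268 to 0.103. Its values were 9.26 to 9.63 in those arrays, 9.32 in array 1, and highest in arrays 2, 6 and 7, up to 12.43, all above the wild-type range of 8.01 to 8.50. Acta2, the smooth muscle actin of myofibroblasts, rose by 1.17 (SE 0.249), or 0.31 for the mean of its probe sets. Col1a1 did not pass the test (log2 change 0.67, adjusted p = 0.0523).

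Endothelial markers rose in smaller steps. Of 35 tested, 24 rose and none fell, with a median of 0.447, and 19 rose with arrays 3, 4 and 5 alone, with a median of 0.402. Lyve1, a hyaluronan receptor of sinusoidal and lymphatic endothelium, read 5.37, 4.59, 5.59, 4.40 and 5.47 in wild type and 6.60 to 9.06 (median 7.34) in knockout. It rose by 2.44 (SE 0.444, adjusted p = 0.000508), and by 1.62 with arrays 3, 4 and 5 alone. Plvap, of fenestral diaphragms, rose by 1.25 (SE 0.154) and Thbd, thrombomodulin, by 1.19 (SE 0.182), both without overlap. Stab2, a scavenger receptor of sinusoids, did not pass the test (log2 change 0.09, adjusted p = 0.591), and 4 of the 24 rose by 2-fold or more.

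Some genes of Wnt supply and reception changed. Of 21 tested ligands, R-spondins and receptors, 5 rose and 1 fell, near the 25.0% of all genes called, with a median of -0.0485. The counts were the same with arrays 3, 4 and 5 alone, where 7.76% of all genes were called. Rspo3, the R-spondin of the central vein, read 6.15, 6.08, 6.19, 6.11 and 6.23 in wild type and 6.77 to 7.38 (median 7.03) in knockout, a rise of 0.94 (SE 0.116, adjusted p = 6.46e-06), or 0.40 for the mean of its probe sets. Wls, which escorts Wnt proteins to the cell surface, rose by 1.32 (SE 0.216, adjusted p = 0.000187), and by 0.86 with those arrays. Fzd7, a Frizzled receptor, fell by 0.53 (SE 0.102), or by 0.27 for the mean of its probe sets. Wnt2, a central vein ligand, did not pass the test with all arrays (log2 change 0.35, adjusted p = 0.107). Knockout array 7 was lowest at 5.40, below all wild-type arrays, and with arrays 3, 4 and 5 alone Wnt2 rose by 0.46 (adjusted p = 0.00796, range 0.00137 to 0.236). Wnt9b, another ligand, was called with all arrays. Its call ended when any 1 of 6 arrays was left out (knockout 1, 2 or 7, wild type 1, 2 or 3). The adjusted p was then 0.0521 to 0.117.

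**Figure D3:**
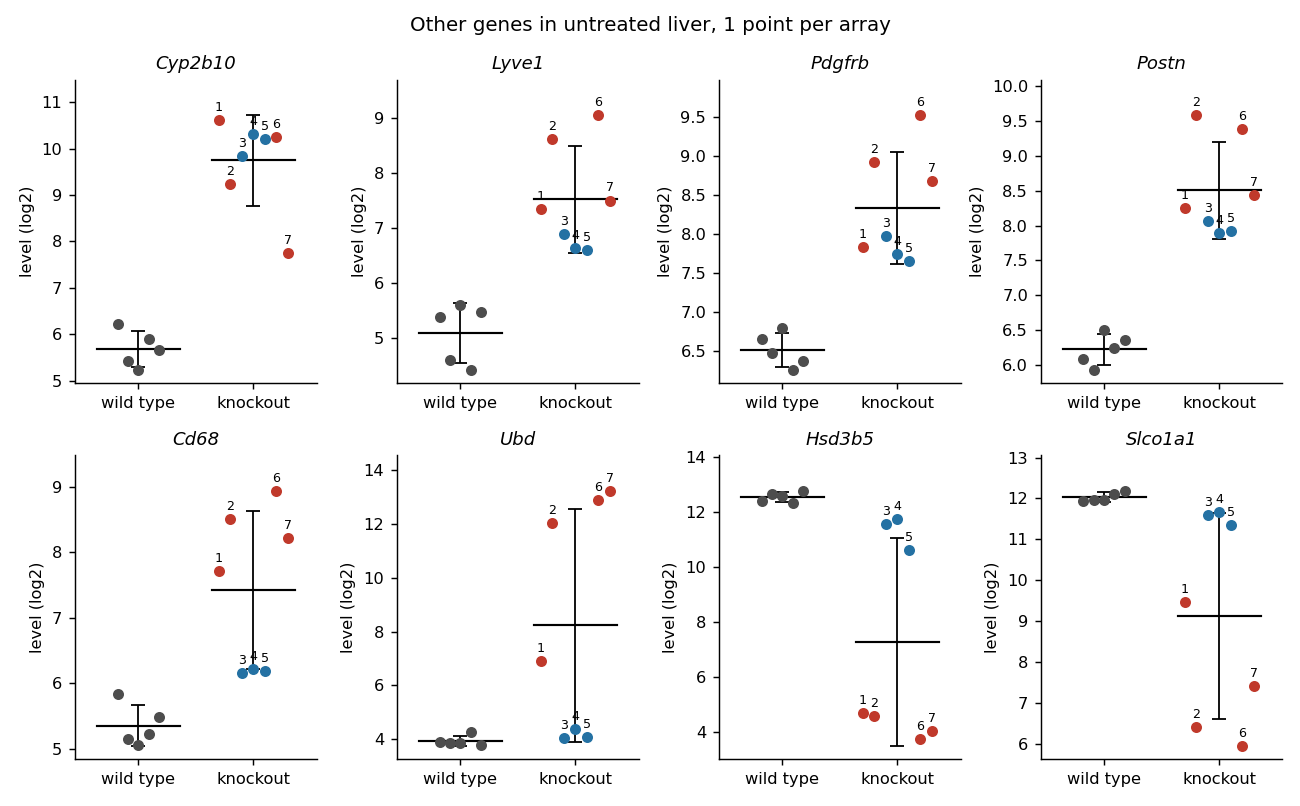
Log2 level per array of Cyp2b10, of genes of other liver cells (Lyve1, Pdgfrb, Postn, Cd68, Ubd) and of the male-biased genes Hsd3b5 and Slco1a1, wild type in grey and knockout labelled by array number, with arrays 1, 2, 6 and 7 in red and 3, 4 and 5 in blue; lines are means and bars SDs. Pdgfrb, Postn and Lyve1 are above wild type in all 7 knockout arrays, while Ubd reaches 12.05 to 13.24 in arrays 2, 6 and 7 and lies at 4.04 to 4.39 in arrays 3, 4 and 5.

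Macrophage markers rose in number as widely as stellate markers, but mostly through knockout arrays 1, 2, 6 and 7. Of 35 tested, 24 rose and none fell, with a median of 1.5, and 1 rose with arrays 3, 4 and 5 alone (Slc40a1, the iron exporter ferroportin), where the median was 0.421. Cd68, a lysosomal protein of macrophages, read 5.84, 5.15, 5.06, 5.23 and 5.48 in wild type. In knockout it read 6.16, 6.21 and 6.19 in arrays 3, 4 and 5 and 7.72, 8.50, 8.94 and 8.22 in arrays 1, 2, 6 and 7. The groups did not overlap, and Cd68 rose by 2.07 (SE 0.46, adjusted p = 0.0029). For arrays 3, 4 and 5 alone the change was 0.83 (adjusted p = 0.204, range 0.00114 to 0.204). The spread behind that adjusted p included the knockout arrays with phenobarbital, where Cd68 had an SD of 0.831. Marco, a scavenger receptor, rose by 2.43 (adjusted p = 0.0426), but read 5.86 to 6.00 in arrays 3, 4 and 5, against 5.37 to 5.93 in wild type and 9.36 to 10.55 in the others. Leaving out any 1 of 9 arrays ended that call, with adjusted p from 0.0667 to 0.0894, and the range over all settings was 0.018 to 0.93, with a change of 0.18 for arrays 3, 4 and 5 alone. The 9 arrays were knockout 1, 2, 6 and 7 and each wild-type array. Clec4f, which marks resident Kupffer cells, did not pass the test (log2 change 0.44, adjusted p = 0.295, range 0.0208 to 0.509), and array 7 was lowest at 6.67. Among other preset macrophage markers, Timd4 ran from 5.05 to 5.72 in wild type and from 5.82 to 8.01 in knockout. Vsig4 ran from 7.97 to 9.06 and from 8.68 to 10.95, and Cd5l from 8.66 to 9.65 and from 9.57 to 12.18.

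Antigen presentation, interferon and chemokine genes divided the arrays in the same way. Of 14 MHC class II genes tested, 10 rose and none fell (median 1.27). H2-Ab1 read 6.5, 5.83, 5.81, 5.91 and 6.67 in wild type, 7.16, 7.08 and 7.32 in knockout arrays 3, 4 and 5, and 9.85, 10.44, 10.72 and 10.73 in arrays 1, 2, 6 and 7. It rose by 2.90 (SE 0.735, adjusted p = 0.00721), against 1.04 with arrays 3, 4 and 5 alone (adjusted p = 0.425, range 0.00297 to 0.425). Interferon response genes rose in 18 of 33 and fell in none (median 1.16). Gbp2, a guanylate-binding protein, rose by 2.81 (SE 0.871, adjusted p = 0.0227), with 5.55 to 5.72 in arrays 3, 4 and 5 and 8.20 to 11.71 in the others, against 4.81 to 5.13 in wild type. Its change with arrays 3, 4 and 5 alone was 0.69 (adjusted p = 0.646, range 0.0101 to 0.646). Chemokines, cytokines and NF-kB targets rose in 13 of 27 (median 0.929). With arrays 3, 4 and 5 alone, the counts of risen genes were 1 of 14 (H2-DMa), 0 of 33 and 5 of 27 in these lists. The medians were then 0.415, 0.277 and 0.155. The list means of all knockout arrays were nevertheless above the highest wild-type array, at 6.51 to 8.50 against 6.01 to 6.29 for MHC class II and 7.80 to 10.7 against 7.49 to 7.67 for interferon.

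Ubd, an interferon-induced ubiquitin-like protein, had the widest spread of the genes tested among the knockout arrays, with an SD of 4.33. Its values there were 6.92, 12.05, 4.04, 4.39, 4.09, 12.91 and 13.24 from array 1 to array 7, against 3.77 to 4.25 in wild type. With overlapping groups it did not pass the test (log2 change 4.31, adjusted p = 0.0581). Lcn2, Orm2 and Saa3, acute phase proteins, had SDs of 3.87, 2.89 and 2.74, were high in arrays 1, 2, 6 and 7, and did not pass the test either (adjusted p = 0.111, 0.135 and 0.101). Wild-type array 1 was the highest of its group for these 3 genes, at 8.86 for Lcn2, 10.51 for Orm2 and 9.76 for Saa3. Spink1, a trypsin inhibitor, was high only in arrays 2, 6 and 7, at 9.70, 9.48 and 8.68 against 4.14 to 4.53 in the other 9 arrays. Ccnd1, which drives cells into the division cycle, read at least 9.61 in the same 3 arrays and 7.71 in array 1. In arrays 3, 4 and 5 it read 6.93, 6.79 and 6.61, below the wild-type range of 7.23 to 7.91.

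Among other leukocyte markers, Cd3e of T cells did not pass the test (log2 change 0.01, adjusted p = 0.936), and Cd2 and Cd79a were below the filter level in all 12 arrays. Ptprc, carried by all leukocytes, rose by 2.38 (SE 0.538, adjusted p = 0.00326), and by 0.95 with arrays 3, 4 and 5 alone (adjusted p = 0.242, range 0.00129 to 0.242). Cd3d, also of T cells, ran from 4.84 to 5.29 in wild type and from 5.29 to 5.94 in knockout. The lymphocyte list had 9 rises and 1 fall of 19 (median 0.55), none with arrays 3, 4 and 5 alone. Its rises included Cd52 by 2.30 (SE 0.61), Coro1a by 1.92 (SE 0.494) and Jchain by 1.83 (SE 0.355), all without overlap. Their changes with arrays 3, 4 and 5 alone were 0.67, 0.61 and 1.26. S100a8 and S100a9, calcium-binding proteins of neutrophils and inflamed tissue, rose in both sets of arrays. S100a9 read 5.87, 5.51, 5.42, 5.31 and 5.60 in wild type and 6.5 to 9.27 (median 7.65) in knockout, up by 2.01 (SE 0.349, adjusted p = 0.000315) and by 1.08 with arrays 3, 4 and 5 alone. S100a8 rose by 2.69 (SE 0.51) and by 1.32. Mpo, an enzyme of young neutrophils, was below the filter level in all 12 arrays.

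**Figure D4:**
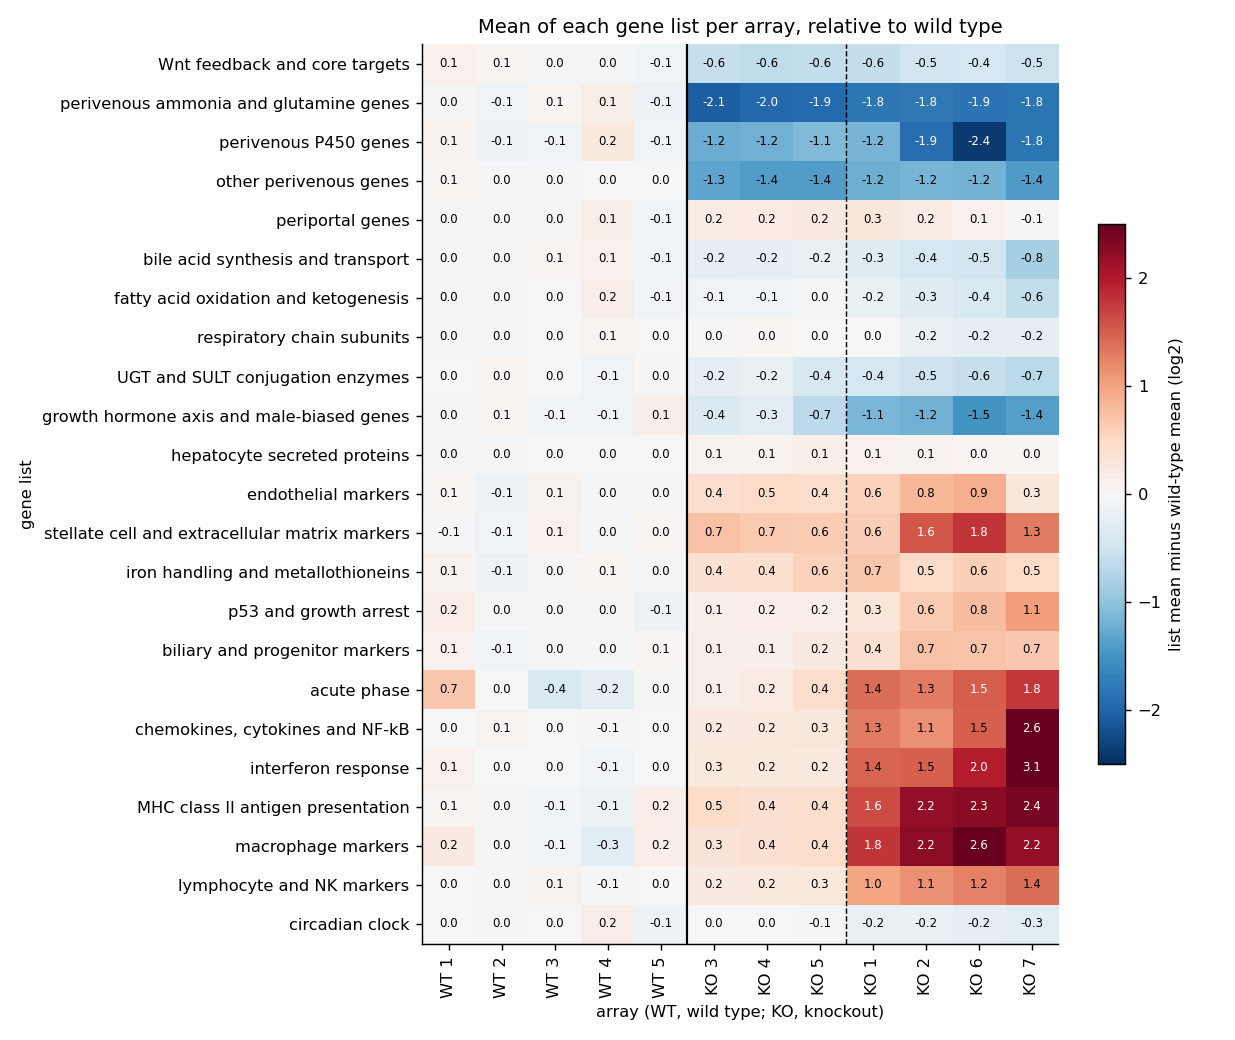
Mean log2 level of each of 23 gene lists in each of the 12 arrays, minus the wild-type mean of the list; red is higher and blue lower than wild type. Perivenous lists are low in all 7 knockout arrays, stellate and endothelial lists are high in all 7, and macrophage, MHC class II, interferon and chemokine lists are highest in arrays 1, 2, 6 and 7.

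**Figure D5:**
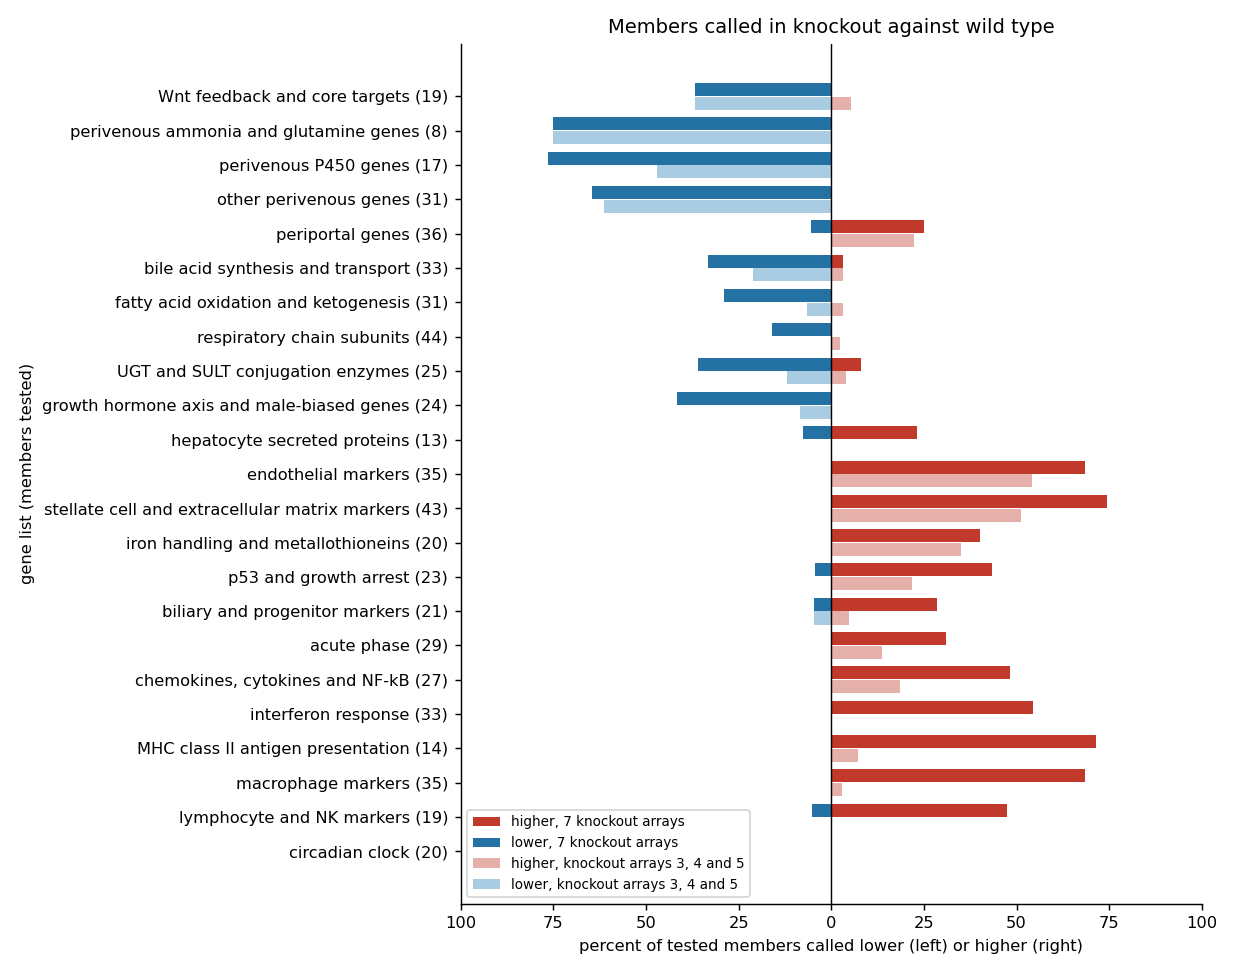
Percent of the tested members of each list called lower (left) or higher (right) in knockout, with all 7 knockout arrays in dark and with arrays 3, 4 and 5 alone in light bars. The ammonia gene count is 6 of 8 in both and the perivenous P450 count goes from 13 to 8 of 17, while the macrophage count goes from 24 to 1 of 35.

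Biliary markers changed in part. Of 21 tested, 6 rose and 1 fell (median 0.337), and 1 of each was called with arrays 3, 4 and 5 alone. Tff3, a trefoil peptide of mucous epithelia, rose by 2.36 (SE 0.446, adjusted p = 0.000717), from 7.93 to 10.25 in wild type to 10.95 to 13.06, and by 1.71 with arrays 3, 4 and 5. Krt19, the keratin of bile duct cells, rose by 0.35 (adjusted p = 0.0355) with overlapping groups. Its call ended when any 1 of 5 arrays was left out (knockout 2 or 7, wild type 2, 3 or 5; adjusted p from 0.0574 to 0.108), and its range over all settings was 0.0262 to 0.256. Sox9 did not pass the test (log2 change 0.34, adjusted p = 0.0571), and Krt7 and Cftr were below the filter level in all 12 arrays.

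Genes of iron handling and metal binding rose in part, and the mean of the list was 0.38 to 0.69 above wild type in every knockout array. Of 20 tested, 8 rose and none fell (median 0.235), and 7 rose with arrays 3, 4 and 5 alone. Mt1 and Mt2 encode metallothioneins, which bind zinc and copper. Mt1 read 8.99, 7.96, 8.0, 8.29 and 8.22 in wild type and 9.94 to 12.81 (median 10.77) in knockout, up by 2.80 (SE 0.419, adjusted p = 7.06e-05), or 1.54 for the mean of its probe sets. Mt2 rose by 2.99 (SE 0.567, adjusted p = 0.000732). Hamp, the hormone hepcidin that limits iron uptake, rose by 0.64 (SE 0.151, adjusted p = 0.00471) with overlapping groups. Id1, a target of the same BMP signal as hepcidin, rose by 1.52 (SE 0.287, adjusted p = 0.000692). In the acute phase list 9 of 29 rose and none fell (median 0.485), and 4 rose with arrays 3, 4 and 5 alone, among them Mt1, Mt2 and Hamp.

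Of 29 proliferation genes, 4 rose and 1 fell (median 0.437), a share of rises near the 14.8% of all genes called higher, and 1 rose with arrays 3, 4 and 5 alone, Ccnd2, a cyclin. It rose by 0.97 with all arrays (SE 0.183, adjusted p = 0.000708) and by 0.53 with those 3. Mki67, a marker of dividing cells, did not pass the test (log2 change 1.30, adjusted p = 0.0649). It read 4.24 to 4.68 in arrays 3, 4 and 5 and 5.61 to 7.57 in the others, against 3.73 to 4.60 in wild type. Among 23 p53 and growth arrest genes, 10 rose and 1 fell (median 0.495), with 5 rises and no fall for arrays 3, 4 and 5 alone. Cdkn1a, the cell cycle inhibitor p21, read 6.91, 6.95, 6.65, 6.54 and 6.16 in wild type and 7.54 to 9.55 (median 7.94) in knockout, up by 1.74 (SE 0.32, adjusted p = 0.000541) and by 0.98 with arrays 3, 4 and 5 alone. Of 21 immediate-early genes 10 rose and none fell (median 0.466), and 3 rose with those arrays, including Sgk1, a kinase, by 1.30 with all arrays (SE 0.21). Afp, the fetal albumin, did not pass the test (log2 change 0.13, adjusted p = 0.863).

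Of 29 tested partners of beta-catenin at junctions, 3 rose and 3 fell (median -0.0181), near the 25.0% of all genes called, and 2 rose and 1 fell with arrays 3, 4 and 5 alone. Jup, plakoglobin, the closest relative of beta-catenin, lay between 6.53 and 6.81 in all 12 arrays (log2 change 0.04, adjusted p = 0.718). Cdh2, N-cadherin, fell by 0.62 (SE 0.0742, adjusted p = 4.51e-06) without overlap. Ctnnbip1, which binds beta-catenin and keeps it from TCF factors, rose by 0.64 (SE 0.0959, adjusted p = 7.06e-05). Gja1, the gap junction protein connexin 43 of non-parenchymal cells, rose by 1.70 (SE 0.176, adjusted p = 6.96e-07), or 1.09 for the mean of its probe sets.

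The genotype effect of untreated mice was also set against that of mice fed phenobarbital, from separate arrays in the same limma fit. In the treated mice 2772 genes (20.0%) were called, and 1557 genes were called in the same direction in both diets, 45.1% of the untreated calls and 56.2% of the treated ones, while 20 were called in opposite directions. The difference of the effects was itself called for 121 genes (0.875%). For Glul and Oat the difference was not called: the change of Glul was -3.51 untreated and -3.10 treated (difference 0.41, SE 0.396, adjusted p = 0.837), and that of Oat was -4.22 in both (SE of the difference 0.312, adjusted p = 0.999). A miss of the threshold does not show that the effects are equal. For Lgr5 the change was larger untreated, -2.12 against -1.02 (difference 1.09, SE 0.188, adjusted p = 0.00378), with knockout levels near the filter level in both, and so it was for Slc1a2, -2.45 against -1.28 (difference 1.16, SE 0.267, adjusted p = 0.0347). Cyp2c37 fell by 4.0 untreated and by 1.65 treated (adjusted p of the difference 0.0236).

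The CAR genes differed most clearly between the diets, with 8 of 14 in the list lower in the difference. The rise of Cyp2b10 in untreated knockout (4.06) was not called under the drug (0.11, SE 0.346, adjusted p = 0.842), where wild type read 12.64 ± 0.0483 (SD, n = 4) and knockout 12.76 ± 0.173 (SD, n = 7); the difference was -3.95 (SE 0.473, adjusted p = 4e-05). Cyp2b9 behaved alike, with 3.59 untreated and -0.10 treated (adjusted p of the difference 0.0302). Other genes had a genotype effect under phenobarbital that was not called in untreated livers. Pnliprp1, a pancreatic lipase relative, was below the filter level in all 12 untreated arrays, and under phenobarbital it averaged 6.77 in wild type and was below that level in all 7 knockout arrays. The treated change was -2.21 against the filter level and -3.54 as fitted (SE 0.0819; adjusted p of the difference 1.27e-15). Serpinb1a and Sult1e1 likewise had changes of -0.13 and 0.35 untreated against -3.57 and -3.51 as fitted in treated mice, where 3 and 1 of 7 knockout arrays were above the filter level. Lratd1 rose by 1.12 untreated (0.72 with arrays 3, 4 and 5 alone) and fell by 2.35 treated (adjusted p of the difference 1.47e-07). For Cd68 the difference was -0.27 (SE 0.674, adjusted p = 0.961) and for Pdgfrb -0.52 (SE 0.388, adjusted p = 0.751), neither called. No member of the macrophage, stellate or endothelial lists had a called difference. The lymphocyte, biliary and interferon lists each had 1 gene lower in the difference.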

How the data were processed

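Liver RNA was hybridised to Affymetrix arrays. The deposited table holds log2 values made by the authors with RMA (affy), per the submitters' processing notes; the genome build behind the probe sets is not given in the sources used here. Of 45037 probe sets, 34945 had 1 gene, 932 several and 9160 none. The probe set with the highest mean stood for each of 18193 genes, and 13826 genes above an array's 40th percentile in at least 4 arrays were tested. Array medians were 5.09 to 5.14, and the number of arrays limits the precision. All 23 arrays entered 1 limma fit (version 3.58.1, R 4.3.3) of 4 groups with 19 residual degrees of freedom, which gave every adjusted p (Benjamini-Hochberg over all genes tested). The fit was run on simulated data in which a gene had the same spread in every group. The untreated knockout spread more than untreated wild type (median SD per gene 0.16 against 0.122), a case that run did not cover. Alternatives changed the filter, scaling, probe sets, weights, arrays and a replicate block.

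The members and gene lists were chosen with earlier results of these data known. Genes named were Ctnnb1, the 15 largest rises and falls without overlap, up to 4 called members a list, preset markers, and the 10 with the largest SD or interaction. Notum, Znrf3, Lgr4, Asl, Lrat, Reln, Pdgfrb, Adipoq, Slc40a1, H2-DMa, C6, Stat5a and Rbms3 were chosen after their values were seen. Promoters are RefSeq windows (GRCm38.p6), and Tbx3 was named only.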

Additional observations from a re-analysis of the deposited data

Results flagged for a closer look

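Among 362 groups of values looked at for single arrays far from the rest of their group, 17 were found; chance gives about 1 in 20 such groups. Knockout array 7 was the outlying one in 7 genes. It was lowest for Adh4 (9.62 against 10.28 to 10.61 in the other knockout arrays), Hal (10.56 against 11.66 to 11.87), Lhpp (4.58 against 4.82 to 5.01), Slco1b2 (10.3 against 11.23 to 11.69) and Stab2 (7.42 against 7.98 to 8.40). It was highest for Tnfaip3, an inhibitor of NF-kB signalling (10.7 against 5.82 to 7.85), and for Gadd45b (8.1 against 6.71 to 7.26). Other knockout arrays stood apart in Alb (array 4, 14.76 against 14.79 to 14.81), Blvrb (array 6, 9.17 against 8.18 to 8.44) and Krt19 (array 2, 5.69 against 5.09 to 5.34). In wild type the outlying values were 13.94 for Cyp2e1 (array 3), 10.06 for Fasn (array 5), 8.74 for Fzd7 and 8.21 for Hsd17b13 (both array 1), 5.37 for Marco and 4.25 for Ubd (both array 4) and 11.42 for Me1 (array 2).

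For 20 of the named genes the genotype effect differed between mice with and without phenobarbital by the interaction in limma. The effect was lower with the drug (treated minus untreated) for Cyp2b10 (-3.95, SE 0.473), Cyp2b9 (-3.69, SE 0.825), Cyp2b13 (-2.95, SE 0.661) and Gadd45b (-1.82, SE 0.308), all genes of the CAR list. It was also lower for the noncoding RNAs Meg3 (-2.18, SE 0.16) and Rian (-1.2, SE 0.259), and for Tnfrsf19 (-1.58, SE 0.226). The genes Ackr3 (-3.84, SE 0.544), Lratd1 (-3.47, SE 0.288), Pnliprp1 (-3.59, SE 0.112), Prom1 (-2.89, SE 0.482), Serpinb1a (-3.44, SE 0.31), Sult1e1 (-3.86, SE 0.397) and Rbms3 (-0.68, SE 0.111) had lower effects as well. Ackr3, a chemokine scavenger, and Prom1, a stem cell surface protein, had untreated changes of 1.35 and 0.65 and treated changes of -2.49 and -2.24. The effect was higher with the drug for Acaa1a (0.71, SE 0.0947), Aldh1b1 (1.17, SE 0.266), Cyp2c37 (2.34, SE 0.506), Lgr5 (1.09, SE 0.188), Slc1a2 (1.16, SE 0.267) and the immediate-early factor Egr1 (3.22, SE 0.566). The adjusted p of these 20 ran from 1.27e-15 for Pnliprp1 to 0.0347 for Slc1a2.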

How the results depend on the processing

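The number of genes called was 3453 as reported, 2078 when only the 12 compared arrays were fitted, 1967 with the replicate block, 538 with a 2-fold minimum, 1535 without knockout arrays 2, 6 and 7, 1073 without knockout arrays 1, 2, 6 and 7, and 2667 to 3903 with any 1 array left out. The interaction count was 121, and 323 with array weights, 273 without knockout arrays 2, 6 and 7 and 253 without knockout arrays 1, 2, 6 and 7. Macrophage markers that rose numbered 24, but 2 and 1 without these same sets of arrays (21 to 27 with any 1 array left out). Perivenous P450 genes that fell numbered 13, and 8 without knockout arrays 1, 2, 6 and 7 (11 to 14). Periportal genes that rose numbered 9, and 14 with array weights and 3 with a 2-fold minimum (7 to 14). Endothelial markers that rose numbered 24, and 4 with a 2-fold minimum (20 to 26); stellate and matrix markers numbered 29 to 35. Falls stayed at 7 for Wnt targets, 6 for ammonia genes and 20 for other perivenous genes with any 1 array left out.

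Of 140 called genes among the 181 named, 82 were called under every alternative run, and none of the 4338 values changed sign while called; values never called could, as Ccnd1 (0.67, -0.77 without knockout arrays 1, 2, 6 and 7). Calls ended for 56 genes without knockout arrays 1, 2, 6 and 7, for 21 with only the 12 arrays, for 25 with the block and for 17 with some 1 array left out; the cause was not tested. Replicate numbers did not pair the samples (correlations of deviations of same-numbered arrays -0.083 to 0.148). The number of arrays sets the smallest difference that could be called.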

Other observations

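Proteins that hepatocytes secrete into blood changed by small amounts. Of 34 coagulation and complement genes tested, 7 rose and 7 fell, with a median log2 change of 0.0413, beside 14.8% of all genes called higher and 10.1% lower. With knockout arrays 3, 4 and 5 alone 6 rose and 1 fell. F10, coagulation factor X, read 11.02 to 11.25 in wild type and 11.50 to 11.63 in knockout, a rise of 0.43 (SE 0.0485, adjusted p = 1.94e-06 in limma) without overlap. Mbl2, a lectin that starts the complement cascade, rose by 0.54 (SE 0.0811). C6, of the membrane attack complex, fell by 0.53 (SE 0.115). Of 25 apolipoprotein and lipoprotein assembly genes, 4 rose and 1 fell (median 0.0443), near the 25.0% of all genes called. With those 3 arrays 4 rose, where 4.96% of all genes were called higher. Tm6sf2, which helps to load lipid on secreted lipoproteins, rose by 0.56 (SE 0.119), with 1 knockout array inside the wild-type range.

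Bmper, a secreted regulator of BMP signalling, was below the filter level in all wild-type arrays (3.75 to 4.28) and read 5.65 to 8.38 in knockout. It rose by at least 2.37 against that level (adjusted p = 8.27e-05), and the fitted rise of 2.91 became 1.80 with knockout arrays 3, 4 and 5 alone. Pf4, a chemokine of platelets and megakaryocytes, rose by 0.78 (SE 0.155), while the red cell gene Slc4a1 and the platelet gene Ppbp were below the filter level in all 12 arrays. Of the 93 genes tested within 10 Mb of Ctnnb1, 33 (35.5%) were called, and 16 (17.2%) with knockout arrays 3, 4 and 5 alone, against 25.0% and 7.76% of all genes. Among them Rbms3 rose by 1.23 and Acaa1a fell by 0.77. Sequence linked to the altered Ctnnb1 allele may go with genotype here, and its part in these calls was not tested. Across the chromosomes the share called ran from 20.1% to 30.7%.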
